A study of Homo sapiens and Mus musculus with 36 samples.

Results

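The respiratory chain and ATP synthase are built from subunits of 2 genomes, and the 46 genes described here are 13 that mitochondrial DNA encodes and 33 that the nucleus encodes. They were taken by gene symbol, the 13 by their MT- prefix, from 13 deposited comparison tables that together list 43515 gene symbols, and all 46 were found in every table. The nuclear members are 15 symbols of complex I, 4 of complex II, 6 of complex III and 8 of complex IV, and every member had an adjusted p-value in every table. The mouse tables list the mitochondrial protein genes as ND1, COX1, CYTB and the like, without the mt- prefix, so they were matched there under those names and are called here by their human names.

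The RNA-seq libraries came from HepG2 and Huh7, human liver cancer cell lines, and the B lymphoma line WEHI-231 of the mouse, with 2 libraries in each of 18 groups. HepG2 cells received 5 uM of MS7126 for 48 h, or of C24, MS7126N1 or MS7126N2, or DMSO alone. MS7126 is a PROTAC, a molecule that joins a ligand of its target to a ligand of a ubiquitin ligase so that the target is degraded, here directed at the histone methyltransferase EZH2. C24 is its matched inhibitor of the enzymatic SET domain, and MS7126N1 and MS7126N2 are analogs made as non-PROTAC controls. Huh7 cells received 5 uM MS7126 or DMSO, for 24 h by most of their labels and 48 h by others. WEHI-231 cells received 1 uM of the EZH2 PROTAC MS8815, its matched inhibitor EPZ-6438, the control analog MS8815N, or DMSO, for 16 h. In the remaining groups HepG2 or Huh7 cells carried a lentiviral hairpin against EZH2 (shEZH2), and HepG2 one of 3 hairpins against SREBP2 (#664, #665 and #667), the protein of the gene SREBF2, which drives cholesterol synthesis genes. All hairpin groups and their controls were selected with puromycin, and their control, shControl here, is an empty vector in some labels and a scramble hairpin in others. Whether the 2 libraries of a group are separate cultures is not stated, so each p-value reflects the spread between these libraries, which may be technical.

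Complex I passes electrons from NADH to ubiquinone, complex II from succinate to ubiquinone, complex III from ubiquinol to cytochrome c, and complex IV from cytochrome c to oxygen. Mitochondrial DNA encodes subunits of complexes I, III and IV and of ATP synthase, but none of complex II. It is transcribed from both strands as long RNAs by a dedicated polymerase, POLRMT, with the factors TFAM and TFB2M, and the long RNAs are cut into single messages, so the abundance of each message also depends on its stability. The nuclear subunits are transcribed like other nuclear genes, often with the factors NRF1, GABP (an ETS factor) and YY1 at their promoters, and their proteins are imported.

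The mitochondrial messages overlap and have near-identical copies in the nuclear genome, which bears on how reads were assigned. MT-ATP8 (chrM:8366-8572, GRCh38) shares 46 bases with MT-ATP6 (chrM:8527-9207) on 1 bicistronic message, and MT-ND4L (chrM:10470-10766) shares 7 bases with MT-ND4 (chrM:10760-12137). The ends that overlap are shown with the shared bases in capitals, and below them the stretch of the chromosome 1 copy MTATP6P1 that matches the MT-ATP6 start, with its differing base in capitals, all on the plus strand of GRCh38.
MT-ATP8 end, chrM:8503-8572: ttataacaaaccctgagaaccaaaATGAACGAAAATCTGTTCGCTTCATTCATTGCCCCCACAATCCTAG
MT-ATP6 start, chrM:8527-8596: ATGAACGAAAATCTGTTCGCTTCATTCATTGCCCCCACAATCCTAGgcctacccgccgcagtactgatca
MT-ND4L end, chrM:10727-10766: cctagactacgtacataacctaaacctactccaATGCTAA
MT-ND4 start, chrM:10760-10799: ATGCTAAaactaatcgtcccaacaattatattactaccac
MTATP6P1, chr1:633696-633765: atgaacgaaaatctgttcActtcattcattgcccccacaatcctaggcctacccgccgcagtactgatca
Over 70 bases the copy differed from MT-ATP6 by 1 base, and over the whole gene the identity was 98.5%. MTND2P28, the copy of MT-ND2, was 98.4% identical, MTCO1P12, the copy of MT-CO1, 98.7%, and MTND4P12, the copy of MT-ND4, 95.7%. A read from these stretches can be counted to either locus, and MT-ND6, encoded on the strand opposite to the other 12, lies beside MT-ND5, so without strand information the MT-ND6 value is uncertain. The values of MT-ATP8, MT-ND4L and MT-ND6 are therefore uncertain wherever they are given below, also where no further word is added.

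Libraries of Huh7 shEZH2 and its control had between 10106193 and 11954322 estimated counts; for the other 12 tables the depth per library is unknown, since they give a mean, a log2 fold change and its SE per gene. All 6 hepatocyte markers (ALB, APOA1, TTR, SERPINA1, AFP and TF) were listed in each liver table, and all 6 B cell markers in each WEHI-231 table. EZH2 fell in Huh7 shEZH2 from 82.6 and 89.7 CPM (counts scaled to 1 common library total) to 13.31 and 13.98 CPM (edgeR quasi-likelihood test with Benjamini-Hochberg adjustment, log2 fold change -2.65, SE 0.08, adjusted p = 3.03e-13). SREBF2 fell with #664, #665 and #667, with log2 fold changes of -1.58 (SE 0.06), -1.08 (SE 0.12) and -2.35 (SE 0.42) in the authors' deposited tables. In the HepG2 libraries labelled shEZH2, however, EZH2 was higher in the authors' deposited table (log2 fold change 0.90, SE 0.38, adjusted p = 0.0337), so that comparison is named by its label only.

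The gene classes moved by different amounts, and in different directions, in the 3 kinds of experiment. In the 4 HepG2 hairpin comparisons all 13 mitochondrially encoded members rose, with medians of the log2 fold change from 1.72 to 2.32, while nuclear members were called in both directions and had medians between -0.08 and 0.26. Under MS7126 both classes leaned down in both liver lines, with medians of -0.36 and -0.14 in HepG2 and -0.64 and -0.29 in Huh7 for mitochondrially and nuclear-encoded members. Under MS8815 in WEHI-231 the classes parted, with a median of 0.28 for the mitochondrially encoded and -0.31 for the nuclear members. The median over all genes of the tables was between -0.01 and 0.01. Members share libraries and, for the mitochondrial class, the parent RNAs, so these medians are descriptions with no test. In bulk RNA fewer cells of a type and less RNA per cell cannot be told apart.

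**Figure D1:**
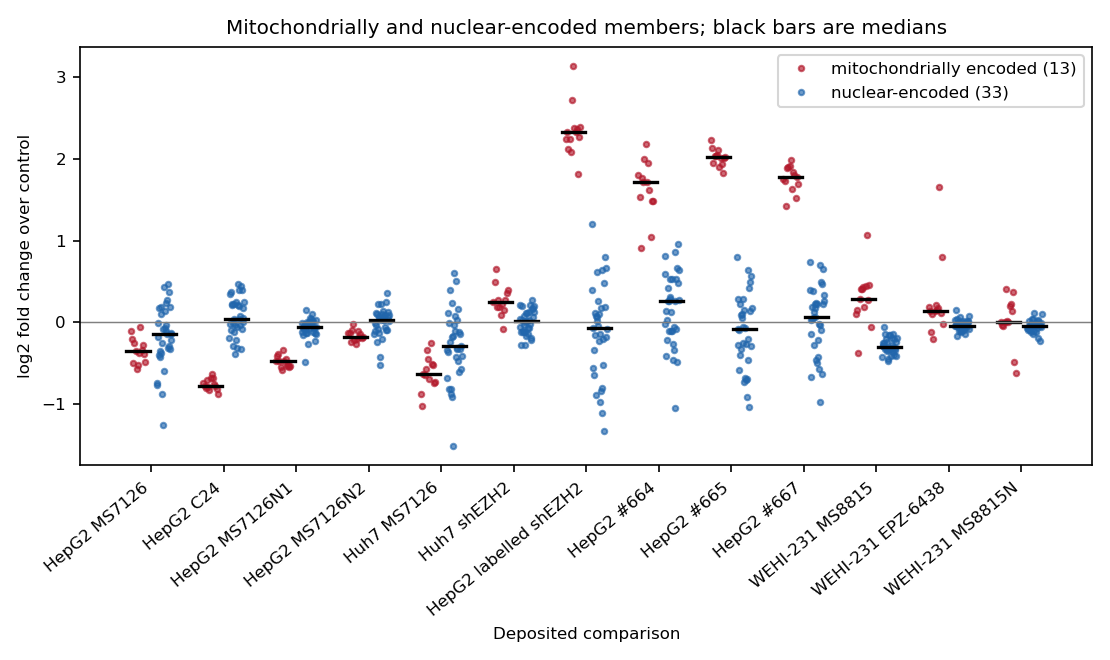
Log2 fold change over control (y axis) in the authors' deposited tables for the 13 mitochondrially encoded (red) and 33 nuclear-encoded (blue) members in each comparison (x axis), with black bars at the class medians. The 4 HepG2 hairpin comparisons have red medians from 1.72 to 2.32 with blue medians near 0, and MS8815 has them at 0.28 and -0.31.

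The Huh7 shEZH2 table holds values for each library, and there most mitochondrial messages rose modestly. Of the 13, 12 rose and 1 fell at an adjusted p under 0.05, where 38.7% of the 14581 genes tested were called, 19.5% higher and 19.3% lower (edgeR quasi-likelihood test with Benjamini-Hochberg adjustment). The median log2 fold change of the 13 was 0.25 in the authors' deposited table. The hairpin and control libraries did not overlap in any of the 13, as in 68.6% of all genes tested, a share that reflects groups of 2 libraries.

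MT-ND3, a membrane subunit of complex I, measured 381.8 and 369.7 CPM in the control libraries and 571.5 and 612.6 CPM in the shEZH2 libraries (edgeR, log2 fold change 0.66, SE 0.03, adjusted p = 1.71e-10). Both shEZH2 libraries were above both controls, and this was the largest rise among the 13. MT-ND2, another membrane subunit of complex I, measured 1470 and 1537 CPM in controls and 2112 and 2125 CPM with the hairpin (edgeR, log2 fold change 0.50, SE 0.02, adjusted p = 2.49e-11). MT-ATP6, the proton channel subunit of ATP synthase, measured 2654 and 2658 CPM against 3359 and 3423 CPM (edgeR, log2 fold change 0.35, SE 0.02), and its partner on the same message, MT-ATP8, 606.0 and 603.8 against 787.6 and 808.5 CPM. MT-CO1, the catalytic subunit of complex IV, went the other way. It measured 7787 and 8030 CPM in controls and 7470 and 7489 CPM with the hairpin (edgeR, log2 fold change -0.08, SE 0.01, adjusted p = 4.35e-04). The other 2 catalytic-core messages of complex IV, MT-CO2 and MT-CO3, rose by 0.15 and 0.28 on the log2 scale. MT-ND6, at 585.6 and 608.5 against 613.7 and 654.8 CPM, had an adjusted p of 0.0288 by edgeR and 0.0792 in the authors' deposited table, so its call depends on the tool. Of the 6 hepatocyte markers 1 rose and 4 fell in the same comparison of the authors' deposited table, and their part was not tested.

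The 12S ribosomal RNA gene MT-RNR1, which is no member, measured 1052 and 1086 CPM in controls and 1739 and 1804 CPM with the hairpin, a log2 fold change of 0.73. The 16S gene MT-RNR2 rose by 0.19. The 13 messages together took 2.67% and 2.75% of the control libraries' counts and 3.09% and 3.12% of the shEZH2 libraries' counts. The shares did not overlap, but with 2 libraries against 2 the exact two-sided permutation test gave p = 0.333, the smallest that its 6 regroupings allow. The 33 nuclear members took 0.474% and 0.469% of counts in controls and 0.474% and 0.478% with the hairpin.

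Per kilobase of gene, the control libraries gave an uneven set of levels over the 13. MT-CO1 was highest, at 5050 and 5208 CPM per kilobase. MT-ATP6 followed at 3898 and 3904, and MT-CO2 lay just below it at 3815 and 3896. MT-ND5, at 938 and 992 CPM per kilobase, and MT-ND1, at 957 and 989, were lowest and overlapped, so their order is not resolved, and the other 8 lay between these and MT-CO2. The level of MT-ATP8 per kilobase was 0.751 and 0.747 of that of MT-ATP6, although both lie on 1 message, and this ratio was 0.366 in the HepG2 hairpin controls and 0.997 in HepG2 with DMSO, both rebuilt from the authors' deposited tables. The source of this spread between experiments was not tested.

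Nuclear members were called in both directions in Huh7 shEZH2. In edgeR 10 rose and 7 fell of 33, with 16 not called, where 19.5% of all genes rose and 19.3% fell. In 25 of 33 the libraries of the groups did not overlap, as in 68.6% of all genes, so the share that fell and the share without overlap were near those of all genes. The authors' deposited table had 11 of 13 mitochondrial members higher and 1 lower, and 3 nuclear members higher and 5 lower. It called 23.4% of all genes, and 61.4% of other abundant genes, those averaging 5000 normalized counts or more. COX5A, a nuclear subunit of complex IV, measured 237.6 and 241.8 CPM in controls and 287.8 and 292.9 CPM with the hairpin (edgeR, log2 fold change 0.28, SE 0.03, adjusted p = 2.43e-06). NDUFA10, an accessory subunit of complex I, went from 81.8 and 79.6 CPM to 65.7 and 67.6 CPM (edgeR, log2 fold change -0.28, SE 0.05, adjusted p = 3.86e-04). In both genes the groups were apart, in opposite directions.

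By complex, UQCRH of complex III and NDUFB5 of complex I rose by 0.21 and 0.20 on the log2 scale. NDUFS7, an iron-sulfur subunit of complex I, fell by 0.27, CYC1, the cytochrome c1 of complex III, by 0.22, COX4I1, a complex IV subunit, by 0.20 and NDUFV1, the NADH-binding subunit of complex I, by 0.17 (edgeR calls). In complex II, SDHA, the succinate-oxidising flavoprotein, had a log2 fold change of 0.11 (edgeR, adjusted p = 0.0379) and SDHC, a membrane anchor, -0.14 (edgeR, adjusted p = 0.0277), and neither was called in the authors' deposited table. NDUFS8, the lowest nuclear member under MS7126, was not called here, at 273.6 and 273.1 CPM in controls and 276.9 and 270.3 CPM with the hairpin.

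**Figure D2:**
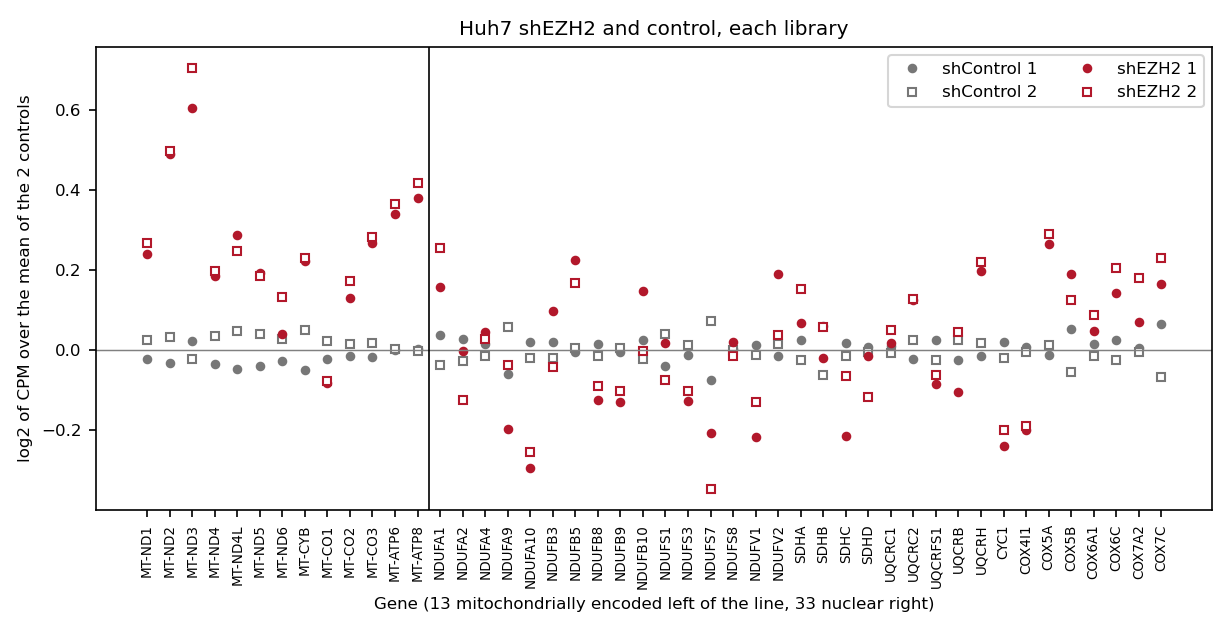
Log2 of each library's CPM over the mean of the 2 control libraries (y axis) for each member (x axis) in Huh7, grey for shControl and red for shEZH2, with mitochondrially encoded genes left of the line. Red points lie above grey ones for 12 of the 13 mitochondrial messages, MT-CO1 being the exception, and lie on both sides of grey among the nuclear genes.

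In HepG2 with hairpins, all 13 mitochondrial messages rose in each of the 4 comparisons of the authors' deposited tables. Of all genes 57.0% (labelled shEZH2), 51.7% (#664), 38.8% (#665) and 37.8% (#667) were called there. Calls were more frequent among other abundant genes, those averaging 5000 normalized counts or more. Of these 89.8%, 87.2%, 65.1% and 61.3% were called, in the same order. The 4 comparisons share their 2 control libraries, so they are not independent of one another, and a high level in the hairpin libraries and a low level in those controls cannot be told apart. The 13 log2 fold changes ran from 1.82 to 3.14 in libraries labelled shEZH2, from 0.90 to 2.18 with #664, from 1.82 to 2.23 with #665 and from 1.42 to 1.99 with #667. MT-CO1 was at a rebuilt level of 345310 normalized counts in controls and 1731200 in libraries labelled shEZH2 in the authors' deposited table (log2 fold change 2.33, SE 0.08). With #664, #665 and #667 its log2 fold change in the authors' deposited tables was 1.95 (SE 0.04), 2.01 (SE 0.15) and 1.83 (SE 0.12). MT-ND6 had the highest value with the label shEZH2, 3.14 (SE 0.09), against 2.18, 2.11 and 1.99 with the SREBP2 hairpins in the authors' deposited tables. MT-ND3 had 2.12 (SE 0.03), 0.90 (SE 0.02), 1.95 (SE 0.34) and 1.42 (SE 0.15) in the same order in the authors' deposited tables, the widest spread over the 4 hairpins among the messages named here. The 6 hepatocyte markers moved in both directions in the authors' deposited tables. They were 4 higher and 2 lower with shEZH2, 4 and 1 with #664, 1 and 4 with #665 and 3 and 2 with #667. Among them ALB had 1.38, 1.52, 0.19 (adjusted p = 0.0594) and 1.01. The medians of the 6 were 0.60, 0.82, -0.45 and 0.57, and the lowest values -0.18, -1.16, -0.87 and -0.43. The part of these markers in the rise of the messages was not tested.

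The ribosomal RNAs of the mitochondrial genome rose with the messages in the authors' deposited tables, MT-RNR1 by 3.01, 2.02, 2.70 and 2.19 and MT-RNR2 by 3.04, 2.24, 2.29 and 2.03. Rebuilt from the authors' deposited tables, the 13 messages took 4.17% of normalized counts in the shared hairpin controls and 16.0%, 11.4%, 14.5% and 12.3% with shEZH2, #664, #665 and #667. The HepG2 cells with DMSO had 21.6% to 21.8%, so the gap between the 2 sets of HepG2 controls was wider than that between any hairpin group and its control. The labels give 2 library kits without saying which libraries used which, and kit, treatment and culture cannot be told apart between those sets.

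**Figure D3:**
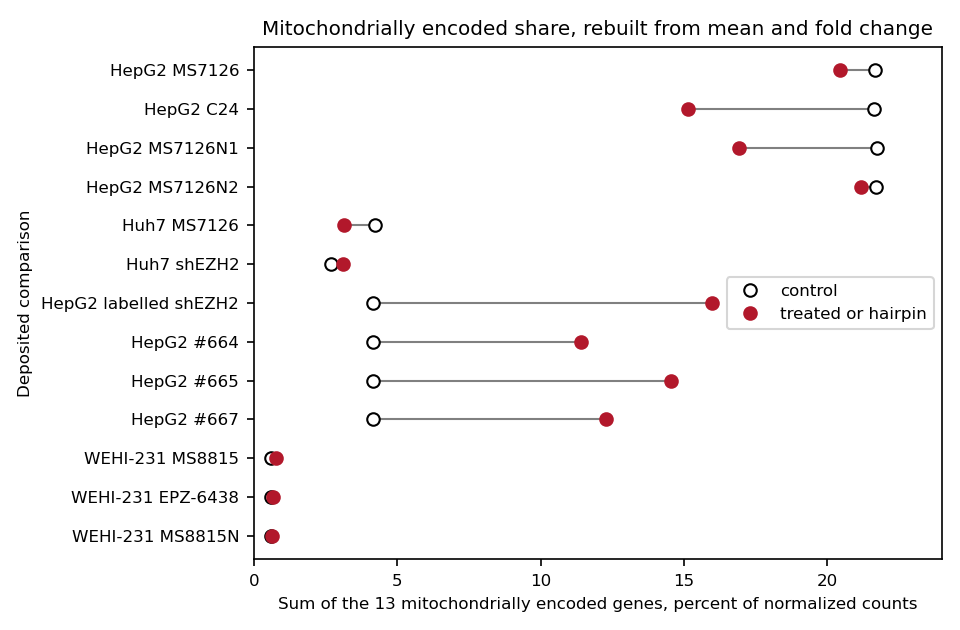
Summed share of the 13 mitochondrially encoded messages in normalized counts (x axis, percent) for control (open) and treated or hairpin (red) groups in each comparison (y axis), rebuilt from the mean and log2 fold change of the authors' deposited tables. HepG2 hairpin groups lie at 11.4% to 16.0% against 4.17% in their shared control, and HepG2 DMSO lies at 21.6% to 21.8%.

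The nuclear members of the same HepG2 hairpin comparisons moved in both directions. With the label shEZH2 10 rose and 13 fell, with #664 18 rose and 9 fell, with #665 7 rose and 13 fell, and with #667 11 rose and 8 fell, in the authors' deposited tables. The shares of all genes called in these tables are those given above for the mitochondrial messages, so many nuclear members were called in tables where many genes were.

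Complex IV held members at both ends. COX5A fell in the authors' deposited tables by 1.33 (SE 0.06), 0.49 (SE 0.04), 1.04 (SE 0.15) and 0.63 (SE 0.12) on the log2 scale with shEZH2, #664, #665 and #667. COX6C, another nuclear subunit of complex IV, rose by 0.66, 0.96, 0.57 and 0.66, COX5B by 0.79, 0.66, 0.49 and 0.47, and COX4I1 by 0.48, 0.53, 0.42 and 0.49 in the authors' deposited tables. In complex III the Rieske iron-sulfur protein UQCRFS1 fell by 1.11, 1.05, 0.92 and 0.98 and the core protein UQCRC2 by 0.80, 0.34, 0.70 and 0.57, while UQCRB, which binds near the ubiquinone site, rose by 0.64, 0.86, 0.64 and 0.71 in the authors' deposited tables. Complexes III and IV thus each contained subunits whose messages parted by more than their SEs.

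In complex II, which has no mitochondrially encoded subunit, the 2 membrane anchors went down. SDHC fell by 0.98, 0.46, 0.69 and 0.43 in the authors' deposited tables, and SDHD fell by 0.84, 0.27 and 0.71 and had -0.22 with #667 (adjusted p = 0.276). SDHA fell by 0.22 (adjusted p = 1.08e-04), 0.11, 0.73 and 0.51 in the authors' deposited tables, whereas SDHB, the iron-sulfur subunit, was called with #664 alone, at 0.53. In complex I, NDUFA1, a small subunit of the membrane arm, rose by 1.21, 0.82, 0.80 and 0.74, and NDUFA10 fell by 0.64, 0.41, 0.58 and 0.68 in the authors' deposited tables.

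**Figure D4:**
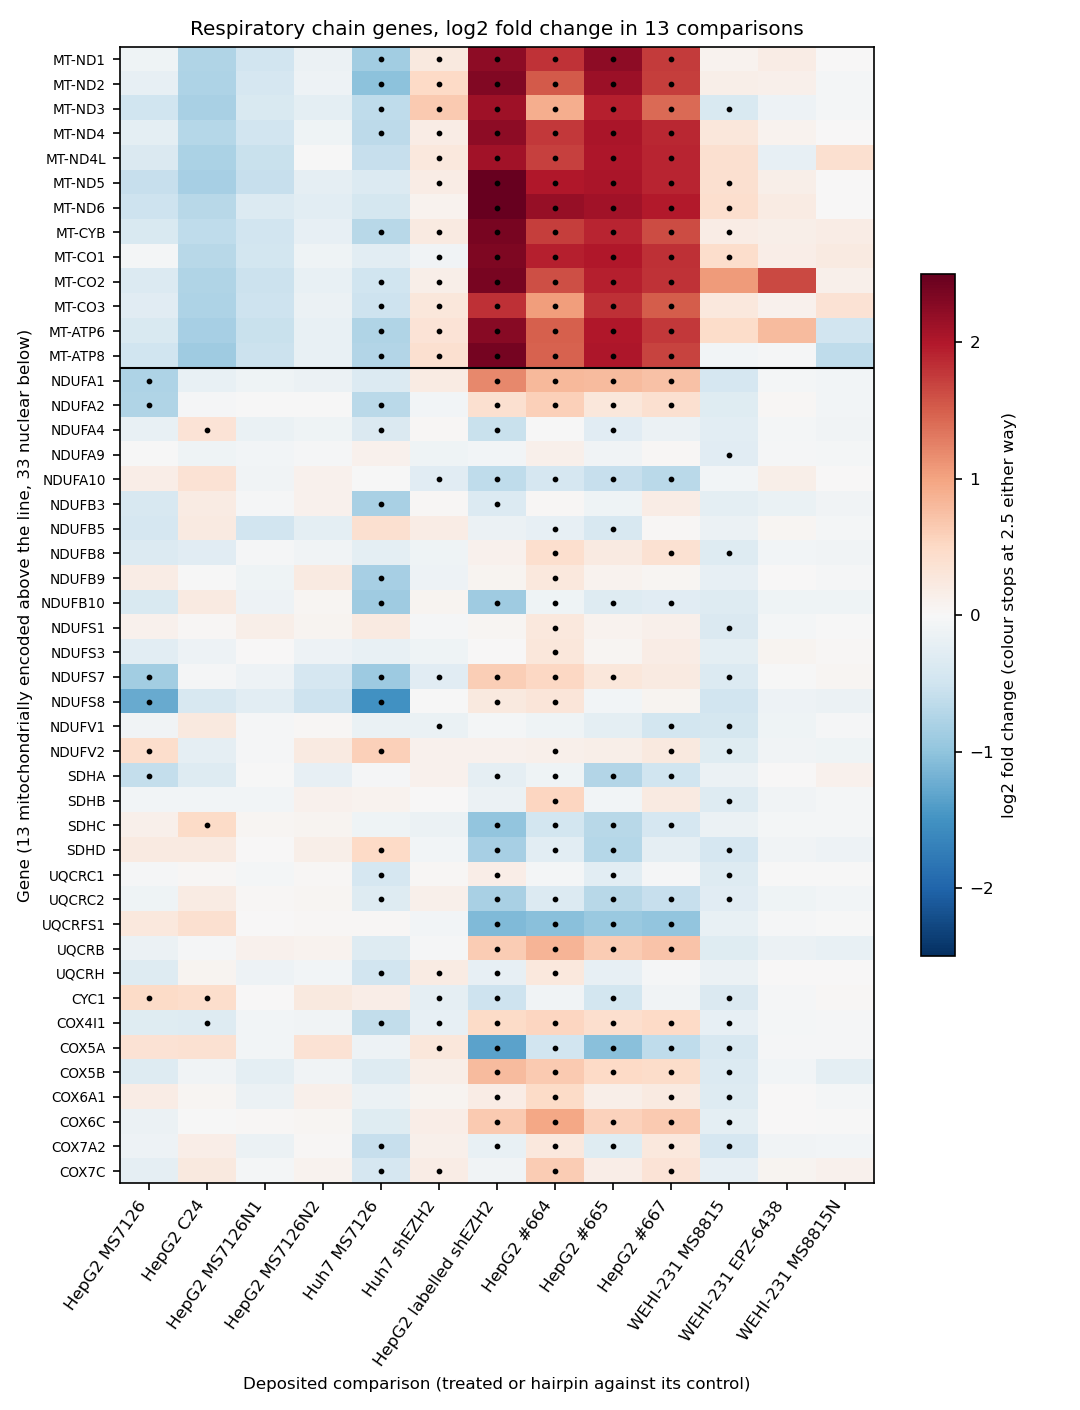
Log2 fold change of each member (rows, 13 mitochondrially encoded above the line) in each of the 13 comparisons (columns) of the authors' deposited tables, with colour ending at 2.5 in either direction. The HepG2 hairpin columns are strongly positive above the line and mixed below it, and the MS7126 columns show NDUFS8 as the lowest nuclear member, at -1.26 and -1.52.

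Messages of both classes were lower with MS7126 in Huh7. In the authors' deposited table, where 33.9% of genes were called (17.5% higher, 16.3% lower), 9 of 13 mitochondrially encoded members fell and none rose, and 13 of 33 nuclear members fell and 2 rose. Among other abundant genes, those averaging 5000 normalized counts or more, 58.7% were called in either direction. MT-ND2 had rebuilt levels of 44188 and 21621 normalized counts with DMSO and MS7126 in the authors' deposited table (log2 fold change -1.03, SE 0.23, adjusted p = 3.68e-05). MT-ND1 followed at -0.87, MT-ATP6 at -0.75, MT-ATP8 at -0.74 and MT-CYB, the cytochrome b of complex III, at -0.70 in the authors' deposited table. MT-CO1, the most abundant message, had -0.26 (adjusted p = 0.381) and MT-ND6 -0.45 (adjusted p = 0.0612) in the authors' deposited table, so neither was called. The ribosomal RNAs parted, with MT-RNR1 lower by 0.59 (adjusted p = 8.14e-05) and MT-RNR2 at 0.08 (adjusted p = 0.763) in the authors' deposited table. The 13 messages took 4.24% of normalized counts with DMSO and 3.13% with MS7126.

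NDUFS8, an iron-sulfur subunit in the arm of complex I that hands electrons to ubiquinone, fell furthest of all 46 in Huh7. Its rebuilt level went from 7482 to 2605 normalized counts in the authors' deposited table (log2 fold change -1.52, SE 0.16, adjusted p = 7.59e-21). NDUFS7, its neighbour in the same electron path, fell by 0.91 (SE 0.16) in the authors' deposited table, from 2228 to 1183. Accessory subunits of the membrane arm followed, NDUFB10 by 0.88, NDUFB9 by 0.82 and NDUFB3 by 0.81, and NDUFA2 fell by 0.68 in the authors' deposited table. In complex III UQCRH, UQCRC1 and UQCRC2 fell by 0.48, 0.42 and 0.31, and in complex IV COX4I1, COX7A2 and COX7C by 0.61, 0.57 and 0.42, in the authors' deposited table. NDUFA4, once assigned to complex I and counted here with complex IV, fell by 0.36.

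The members that rose in Huh7 were NDUFV2, an iron-sulfur subunit of the NADH-binding end of complex I (log2 fold change 0.60, SE 0.12, adjusted p = 2.37e-06), and the complex II anchor SDHD (0.50, SE 0.12, adjusted p = 3.13e-04), in the authors' deposited table. In complex II none of the 4 members fell, against 6 of 15 in complex I, 3 of 6 in complex III and 4 of 8 in complex IV. The hepatocyte markers fell in the same comparison, 6 of 6 with a median of -0.93 in the authors' deposited table, and their part in the members' changes was not tested.

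In HepG2 with MS7126 5 nuclear members fell, 4 of complex I and 1 of complex II, 2 rose, and no mitochondrial message was called. The authors' deposited table called 15.5% of all genes, 7.44% higher and 8.06% lower, and 31.8% of other abundant genes, those averaging 5000 normalized counts or more. It called 0 of 13 mitochondrially encoded members (1 at an unadjusted p under 0.05) and 2 higher and 5 lower of 33 nuclear members. NDUFS8 went from 1835 to 767 normalized counts in the authors' deposited table (log2 fold change -1.26, SE 0.20, adjusted p = 8.94e-09). NDUFS7 went from 910 to 495 (-0.88, SE 0.18, adjusted p = 3.76e-05), NDUFA2 from 1546 to 919 (-0.75, SE 0.17, adjusted p = 2.1e-04) and NDUFA1 from 1688 to 986 (-0.78, SE 0.16, adjusted p = 1.86e-05) in the authors' deposited table. The fifth was SDHA, at -0.60 (adjusted p = 0.00915), and the 2 that rose were NDUFV2, at 0.44 (SE 0.14, adjusted p = 0.0185), and CYC1, at 0.47 (SE 0.18, adjusted p = 0.046), in the authors' deposited table. Hepatocyte markers fell here too, 5 of 6 with a median of -0.86, and their part was not tested.

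The mitochondrial messages of the HepG2 compound libraries were poorly determined. All 13 were below 0 under MS7126, from -0.57 for MT-ND5 to -0.06 for MT-CO1, and under C24 all 13 were below 0 with a median of -0.78, yet none was called under either compound in the authors' deposited tables. Their median SE was 0.29 under MS7126, 0.51 under C24, 0.29 under MS7126N1 and 0.83 under MS7126N2, against 0.15, 0.11, 0.15 and 0.15 for other abundant genes, those averaging 5000 normalized counts or more. Such an excess was not particular to these libraries, being 0.22 against 0.12 in Huh7 with MS7126 and 0.21 against 0.07 with MS8815N. It was absent in Huh7 shEZH2 (0.028 against 0.032) and with #664 (0.025 against 0.036). MT-ND2 under C24 went from 247260 to 144290 normalized counts in the authors' deposited table (log2 fold change -0.78, SE 0.51, adjusted p = 0.444), a fall that these libraries could not separate from their spread. The 13 messages took 20.4% of normalized counts with MS7126, 15.1% with C24, 16.9% with MS7126N1 and 21.2% with MS7126N2. These 4 comparisons share their 2 DMSO libraries.

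C24 and the analogs left most nuclear members uncalled. C24 had 3 higher and 1 lower of 33 where 7.02% of genes were called in the authors' deposited table, namely the complex II anchor SDHC (0.47, adjusted p = 0.0145), CYC1 (0.45, adjusted p = 0.006), NDUFA4 (0.35, adjusted p = 0.0497) and COX4I1 (-0.33, adjusted p = 0.039). MS7126N1 and MS7126N2 called 0 of 46 members each, where 0.159% and 0.703% of genes were called in the authors' deposited tables; at an unadjusted p under 0.05 there were 0 and 2 nuclear members and no mitochondrial message.

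The differences between compounds at the same dose and time were tested over all genes and adjusted over 5 pairs of compounds, 3 of them in HepG2. Against C24, where 5.62% of differences were called, MS7126 had lower NDUFS8 by 0.86 on the log2 scale (SE 0.26, adjusted p = 0.0322, normal test of the difference of the authors' deposited log2 fold changes with Benjamini-Hochberg adjustment). NDUFS7 was lower by 0.85 (SE 0.24, adjusted p = 0.0143) and NDUFA2 by 0.73 (SE 0.23, adjusted p = 0.0402), and NDUFV2 was higher by 0.66 (SE 0.19, adjusted p = 0.0185). Against the analog MS7126N1, where 4.26% were called, the difference of NDUFS8 was -0.99 (SE 0.30, adjusted p = 0.0319) and that of NDUFA2 -0.74 (SE 0.24, adjusted p = 0.0428). Against MS7126N2, where 2.25% were called, no member passed; NDUFS8 had a difference of -0.74 with a 95% interval from -1.29 to -0.185 (adjusted p = 0.151), which does not show that the compounds act alike. The tables share their DMSO libraries and this test takes no covariance; with an assumed covariance 6 nuclear members were lower with MS7126 against C24, 5 against MS7126N1 and 3 against MS7126N2. NDUFS8 had log2 fold changes of -1.26, -0.39, -0.27 and -0.52 with MS7126, C24, MS7126N1 and MS7126N2 in the authors' deposited tables. No mitochondrial message differed by this test between MS7126 and the other 3 compounds (0 at an unadjusted p under 0.05), with median SEs of the difference from 0.41 to 0.87.

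Between the liver lines, the MS7126 response of 1 member differed of 46, where 7.54% of genes did. NDUFB9, a membrane-arm subunit of complex I, had a log2 fold change of 0.19 in HepG2 and -0.82 in Huh7, a difference of 1.01 (SE 0.21, 95% interval 0.60 to 1.42, adjusted p = 1.2e-04, normal test of the difference with Benjamini-Hochberg adjustment). The doses were equal but the times differ, 48 h against 24 h by most labels, so line and time cannot be told apart. NDUFS8, NDUFS7 and NDUFA2 were lower and NDUFV2 higher in both lines, each called in each authors' deposited table.

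**Figure D5:**
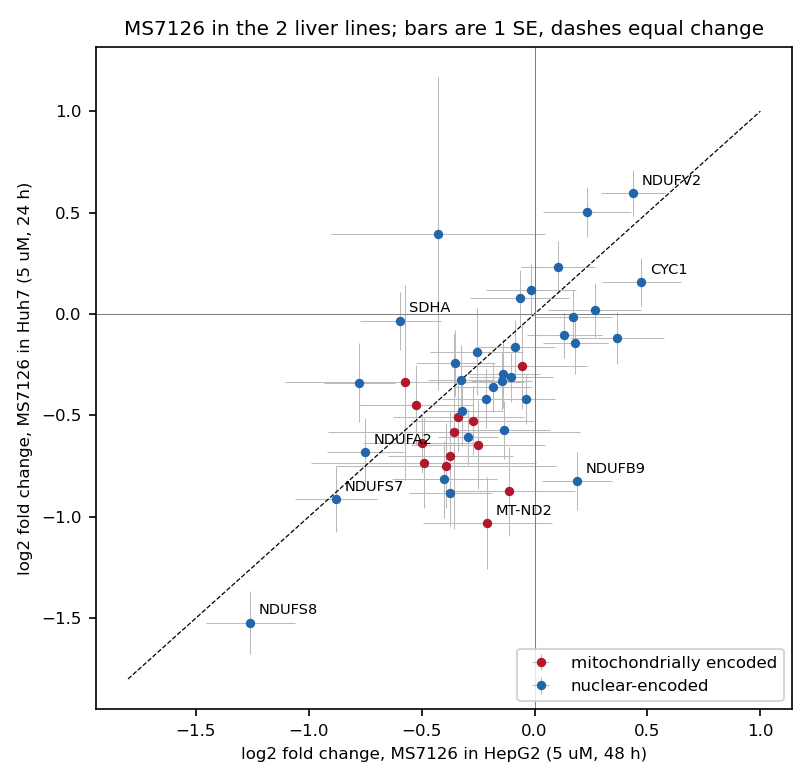
Log2 fold change with MS7126 in HepG2 (x axis, 5 uM, 48 h) against Huh7 (y axis, 5 uM, 24 h) from the authors' deposited tables, red for mitochondrially and blue for nuclear-encoded members, bars 1 SE, dashes equal change. NDUFS8 is lowest on both axes, at -1.26 and -1.52, and NDUFB9 lies far below the dashes, at 0.19 and -0.82.

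The promoters of the complex I members that fell most clearly with MS7126 in both lines, NDUFS8, NDUFS7 and NDUFA2, are shown with the letters that known activators of respiratory genes prefer. Each runs from 250 bases before to 50 after the gene's start in the gene's own direction (RefSeq, GRCh38.p14), and the only capitals mark a match to the YY1 motif.
NDUFS8 promoter, chr11:68030431-68030730, plus strand: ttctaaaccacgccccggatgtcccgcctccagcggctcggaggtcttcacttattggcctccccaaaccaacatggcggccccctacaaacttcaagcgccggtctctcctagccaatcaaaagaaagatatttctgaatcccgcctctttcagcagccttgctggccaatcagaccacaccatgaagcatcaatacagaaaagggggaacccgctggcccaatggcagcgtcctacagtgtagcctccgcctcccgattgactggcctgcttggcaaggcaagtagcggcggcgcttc
NDUFS7 promoter, chr19:1383657-1383956, plus strand: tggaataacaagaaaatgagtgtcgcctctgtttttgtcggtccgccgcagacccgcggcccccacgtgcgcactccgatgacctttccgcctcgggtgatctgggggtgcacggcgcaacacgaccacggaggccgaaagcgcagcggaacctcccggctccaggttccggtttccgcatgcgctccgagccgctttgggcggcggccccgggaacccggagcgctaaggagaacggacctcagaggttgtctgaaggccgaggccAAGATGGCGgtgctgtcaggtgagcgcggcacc
NDUFA2 promoter, chr5:140647581-140647880, minus strand: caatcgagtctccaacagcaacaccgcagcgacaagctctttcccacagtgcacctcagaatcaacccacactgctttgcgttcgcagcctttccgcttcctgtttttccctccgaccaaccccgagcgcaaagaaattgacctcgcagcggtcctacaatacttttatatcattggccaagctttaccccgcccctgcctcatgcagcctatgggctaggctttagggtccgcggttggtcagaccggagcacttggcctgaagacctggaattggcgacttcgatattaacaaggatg
The motifs searched on both strands were GCGCA and GCGC with 1 base of any kind between them for NRF1, CCGGAAG for ETS factors and AAGATGGCG for YY1. Of the 33 nuclear members 26 had a promoter in the RefSeq table. The NRF1 letters were in 5 of the 26 (19.2%) against 5.78% of 35116 promoters. The ETS letters were in 9 (34.6%) against 10.3%, and the YY1 letters in 4 (15.4%) against 1.75%. The 26 were counted with 1 promoter per gene symbol and the 35116 without that reduction, so the shares come from unlike sets. NDUFS7 held the YY1 letters from position 17 after its start, and NDUFS8 and NDUFA2 held no exact match to any of the 3 in this window. Stretches that differ from a motif by 1 base were not counted. A match, or its lack, describes letters only.

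In WEHI-231 with MS8815 nuclear members of every complex fell and a few mitochondrial messages rose. The nuclear members that fell numbered 17 of 33 and none rose in the authors' deposited table, and all 33 were below 0. That table called 17.1% of all genes, 11.8% lower and 5.34% higher. Calls were more frequent among other abundant genes, those averaging 5000 normalized counts or more, at 51.0%. Of the mitochondrially encoded members 4 rose and 1 fell. MT-CO1 went from 58126 to 79253 normalized counts in the authors' deposited table (log2 fold change 0.45, SE 0.06, adjusted p = 1.73e-12), MT-ND5 from 9809 to 12981 (0.40, SE 0.07, adjusted p = 1.03e-06) and MT-CYB from 20987 to 23953 (0.19, SE 0.06, adjusted p = 0.0199). MT-CYB had 0.15 with EPZ-6438 and 0.20 with MS8815N, and MS8815 differed from these by 0.04 (SE 0.08) and -0.004 (SE 0.25). Its rise thus cannot be set apart from the values with those compounds. MT-ND6 rose by 0.43, and MT-ND3 was the one that fell, from 2826 to 2167 (-0.38, SE 0.08, adjusted p = 1.17e-04), in the authors' deposited table. MT-CO1 and MT-ND3 thus moved opposite to each other, as they did in Huh7 shEZH2, where MT-ND3 was the one that rose. The row matched to MT-CO2 held a mean of 167 to 344 normalized counts over the 3 WEHI-231 tables, far below the other complex IV messages, with an SE of 0.96 or more, and is not read further. The 12S ribosomal RNA gene mt-Rnr1 rose by 0.55 (adjusted p = 0.024) and mt-Rnr2 had 0.49 (adjusted p = 0.0815) in the authors' deposited table. Of the 6 B cell markers 3 fell, with a median of -0.12 over the 6, and their part was not tested.

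The nuclear members that fell with MS8815 came from every complex, 6 of 15 in complex I, 2 of 4 in complex II, 3 of 6 in complex III and 6 of 8 in complex IV. NDUFV1 went from 1472 to 1079 normalized counts in the authors' deposited table (log2 fold change -0.45, SE 0.10, adjusted p = 1.77e-04), SDHD fell by 0.42, CYC1 by 0.37 and COX5A by 0.40. The largest fall called was 0.45, far from the 1.26 and 1.52 of NDUFS8 in the liver lines. NDUFS8 itself had -0.47 (SE 0.23, adjusted p = 0.156) at a low level of 290 normalized counts with DMSO in the authors' deposited table.

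EPZ-6438 and MS8815N called 0 of 46 members, where 0.243% and 0.119% of genes were called in the authors' deposited tables. These tables share DMSO libraries with that of MS8815. At an unadjusted p under 0.05 there were 5 mitochondrial messages with EPZ-6438, and 1 mitochondrial message and 1 nuclear member with MS8815N. The share of all genes under that unadjusted threshold was not counted. Of the 13 messages 10 were above 0 with EPZ-6438 and 9 with MS8815N, with medians of 0.14 and 0.01. Their median SE was 0.21 with MS8815N against 0.08 with MS8815, so the absence of calls there does not show a lack of change. Against EPZ-6438, where 3.97% of differences were called, MS8815 had higher MT-CO1 (difference 0.28, SE 0.08, adjusted p = 0.0121, normal test of the difference with Benjamini-Hochberg adjustment) and lower UQCRC1 (-0.32, adjusted p = 0.0327) and CYC1 (-0.34, adjusted p = 0.033). Against MS8815N, where 2.89% were called, it had higher MT-ND5 (difference 0.39, SE 0.12, adjusted p = 0.045) and lower CYC1 (-0.40, SE 0.11, adjusted p = 0.0155). These tests too take no covariance for the shared DMSO libraries; with an assumed covariance 14 and 12 nuclear members were lower against EPZ-6438 and MS8815N, and 2 mitochondrial messages were higher and 1 lower against each. The median difference of the 33 nuclear members was -0.26 and -0.24 against EPZ-6438 and MS8815N. The rebuilt share of the 13 messages in normalized counts was 0.59% with DMSO, 0.76% with MS8815, 0.67% with EPZ-6438 and 0.65% with MS8815N. A low level in the shared DMSO libraries and a rise with each compound cannot be told apart.

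Other genes of the same machinery were counted from lists, to be read against the 8.06% of all genes that fell with MS7126 in HepG2, 16.3% in Huh7 and 11.8% with MS8815 in WEHI-231. The nuclear subunits of ATP synthase fell with MS7126 in 7 of 18 in HepG2, among them ATP5I (-0.82), ATP5D (-0.82) and ATP5J2 (-0.64), and in 11 of 18 in Huh7, and with MS8815 in 14 of 17, among them Atp5b (-0.50) and Atp5a1 (-0.40), with none rising, in the authors' deposited tables. With C24, where 7.02% of genes were called in either direction, 4 of 18 rose and none fell, including ATP5A1 (0.39), ATP5F1 (0.51) and ATP5G3 (0.41). Of 22 further complex I subunits, 4 fell and 1 rose with MS7126 in HepG2, the rise being NDUFS4 (0.80), and 12 fell and 1 rose in Huh7, among them NDUFB4 (-0.76) and NDUFB7 (-0.98), in the authors' deposited tables. Of 8 further subunits of complexes III and IV and cytochrome c, 7 fell with MS8815, among them Cox6b1 (-0.42) and Cycs (-0.39). With MS7126 in HepG2 none of these fell and 2 rose, COX7A2L (0.67) and UQCR11 (0.47). In Huh7 3 fell and none rose.

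Assembly factors were called at about the share of all genes with MS7126. Of 48, 6 rose and 3 fell in HepG2, where 15.5% of genes were called, and 6 rose and 9 fell in Huh7, where 33.9% were, in the authors' deposited tables. PET100, which takes part in complex IV assembly, fell by 1.34 in HepG2 and 1.06 in Huh7 with MS7126 and rose by 1.75 in HepG2 libraries labelled shEZH2, in the authors' deposited tables. COX10 and SCO1, needed for the heme and copper of complex IV, rose in Huh7 by 1.16 and 0.81 in the authors' deposited table.

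Genes that maintain mitochondrial DNA were called in both directions with MS7126 in the authors' deposited tables. Of 13, 2 rose and 3 fell in HepG2, where 15.5% of all genes were called. In Huh7 2 rose and 2 fell, where 33.9% of all genes were called. With C24, MS7126N1 and MS7126N2 1 fell each, where 7.02%, 0.159% and 0.703% of all genes were called. With MS8815 2 fell, where 17.1% of all genes were called, and none was called with EPZ-6438 or MS8815N. POLG, the catalytic subunit of the mitochondrial DNA polymerase, fell by 4.23 (SE 0.48) with MS7126, 2.25 (SE 0.40) with C24 and 2.73 (SE 0.35) with MS7126N1 in HepG2 and by 1.21 in Huh7 with MS7126 in the authors' deposited tables. The 3 HepG2 tables share their DMSO libraries, yet POLG rebuilt in them came to 951, 436 and 398 normalized counts with DMSO, so the size of its fall depends on the table. In Huh7 with MS7126, where 9 mitochondrial messages fell, genes of this machinery went both ways in the authors' deposited table. The helicase TWNK (0.83), the transcription and packaging factor TFAM (0.36), POLRMT (0.40) and the poly(A) polymerase MTPAP (1.13) rose. TK2 (-2.01), also a DNA maintenance gene, fell, as did FASTK (-0.98) and GRSF1 (-0.36) of RNA processing and stability. Of 8 transcription genes 1 rose and none fell, and of 17 processing genes 4 rose and 2 fell. Of all genes 17.5% rose and 16.3% fell. With MS8815 in WEHI-231, Tfam fell by 0.36, and 17 of 81 mitochondrial ribosomal proteins fell where 11.8% of all genes did, in the authors' deposited table.

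In the HepG2 hairpin comparisons, where the mitochondrial messages rose, genes that transcribe and process them were called in both directions. Of 13 DNA maintenance genes 9, 8, 3 and 2 were called with shEZH2, #664, #665 and #667 in the authors' deposited tables, where 57.0%, 51.7%, 38.8% and 37.8% of all genes were. TFB2M fell by 1.57, 1.39, 1.03 and 1.32, whereas POLRMT rose by 0.22 with shEZH2 and 0.28 with #664, and TFB1M, a methyltransferase of the 12S RNA, rose by 0.48 with shEZH2, in the authors' deposited tables. Of 17 genes of mitochondrial RNA processing and stability 5, 4, 5 and 3 rose and 9, 6, 3 and 3 fell. SLIRP, an RNA-binding protein that stabilises mitochondrial messages, rose by 1.02, 0.86, 1.18 and 1.14, while GRSF1, a protein of mitochondrial RNA granules, fell by 0.70, 0.50, 0.36 and 0.53 and FASTKD5, which takes part in message processing, by 0.90, 0.42, 0.36 and 0.29, in the authors' deposited tables. Of 82 mitochondrial ribosomal proteins 64, 45, 41 and 31 fell and 13, 20, 10 and 17 rose, to be read against the same shares of all genes called.

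Some nuclear copies of mitochondrial genes had values close to those of the genes they resemble, and others had SEs too wide to tell. MTATP6P1 had a log2 fold change of 2.19 in HepG2 libraries labelled shEZH2, 0.26 in Huh7 shEZH2 and -0.83 in Huh7 with MS7126 in the authors' deposited tables, and MTND2P28 had 2.04, 0.61 and -1.06. With MT-ND2 at 2.32, 0.50 and -1.03 in the same comparisons, the reads of gene and copy cannot be told apart from these tables. MTND1P23, a copy of MT-ND1, had 0.80 (SE 1.71) with MS7126 in HepG2 and MTND4P12 had -0.48 (SE 0.93) in Huh7 shEZH2, where MT-ND1 had -0.11 and MT-ND4 rose, in the authors' deposited tables. The WEHI-231 tables list none of the 14 human copies searched.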

How the data were processed

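RNA-seq was made from 36 libraries in 18 groups of 2, named from the labels. STAR 2.4.2, Salmon, GRCh38 and mm10 are named in the submitters' processing notes, and strand use is not given in the sources used here. Per the file headers the 13 deposited tables follow DESeq2's layout: a mean signal (normalized counts averaged over the libraries of a comparison), log2 fold change and SE, the score that divides them, and its p-value before and after adjustment. Estimated counts per library were deposited by the authors only for Huh7 shEZH2.

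The estimated counts were rounded and tested with edgeR 4.0.16 (TMM, quasi-likelihood, 14581 genes, no block); 20 rows whose symbols had turned into dates, up to 0.205% of counts, were left out. The script was tested on simulated data. Other calls are the authors' adjusted p under 0.05. Control and treated levels were rebuilt from mean and log2 fold change. Differences between compounds used both SEs and no covariance, although DMSO libraries are shared, over genes with a mean of at least 10; DESeq2 1.42.0 was an alternative. Intervals are 95%. Any member could be named; of other lists, up to 3 called genes per direction by smallest adjusted p with a mean of at least 100, of which 1 gene is not reported here. The members and lists were chosen with earlier results of these data known. Same-numbered Huh7 libraries did not deviate together (correlation -0.03), and replicates differed by more than sampling noise (chi-square per degree of freedom 1.63 and 1.54). With 10106193 to 11954322 estimated counts per library, Huh7 SEs were 0.01 to 0.08 on the log2 scale. Sequences and positions are from GENCODE on GRCh38 and RefSeq on GRCh38.p14.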

Additional observations from a re-analysis of the deposited data

Results flagged for a closer look

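The response of NDUFB9 to MS7126 differed between the liver lines. Its log2 fold change in HepG2 minus that in Huh7 was 1.01, tested as a difference of the authors' deposited log2 fold changes with Benjamini-Hochberg adjustment over all genes (adjusted p = 1.2e-04). The labelled times differ between the lines, and line and time cannot be told apart.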

How the results depend on the processing

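In Huh7 shEZH2 the 12 mitochondrial messages called higher and the 1 called lower were 12 and 1 with a replicate block, where nuclear members were 8 higher and 7 lower; the numbers did not pair the libraries (correlation -0.03), so the block is given here only. The count of nuclear members called higher, 10, was 3 with DESeq2, 3 by the authors' adjusted p, 4 at an adjusted p under 0.01 and 5 to 6 where a left-out library moved it. Uncalled values near 0 changed sign: NDUFS8 had -0.0016 with no filter, -0.00027 with TMM factors without the mitochondrial genes, -0.00015 with DESeq2, -0.00018 in the authors' deposited table and -0.0186 to 0.017 with 1 library left out. With 1 library left out NDUFB3 ran from -0.0455 to 0.0952, NDUFB10 from -0.00524 to 0.145, NDUFS1 from -0.0774 to 0.0182, SDHB from -0.0423 to 0.0783 and UQCRB from -0.105 to 0.0434.

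In the deposited comparisons the 2 nuclear members higher with MS7126 in HepG2 became 0 at an adjusted p under 0.01 and 1 when the adjustment was recomputed over every gene or the table recentred. With C24 the 3 higher became 1 and the 1 lower became 0 at 0.01, and 0 when recomputed, and in Huh7 shEZH2 the 3 higher became 1. The mitochondrial minus nuclear gap was 2.22 with weights by SE for the label shEZH2, 1.22 with weights, 1.41 without MT-ND6, MT-ATP8 and MT-ND4L and 1.503 over all nuclear subunits for #664, and 0.47 with weights for MS8815. The 11 differences called between compounds became 0 at an adjusted p under 0.01, in each pair and class, and 48 with an assumed covariance for the shared DMSO libraries. That covariance gave 6 nuclear members lower against C24, 1 higher and 5 lower against MS7126N1, 3 lower against MS7126N2 (1 when recentred), and for MS8815 2 mitochondrial messages higher and 1 lower against each of EPZ-6438 and MS8815N, with 14 and 12 nuclear members lower. The cause was not tested. The other 306 recomputed counts and gaps stayed within 1.5 times or their spread. Depth per library is unknown for 12 tables, so the wide SEs of the HepG2 mitochondrial messages cannot be traced to a library.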

Other observations

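Mitochondrial chaperones and proteases, a group not described above, moved in both directions with MS7126 in the authors' deposited tables. HSPE1, the co-chaperone of the matrix chaperonin HSPD1, fell by 0.90 in HepG2 and 1.05 in Huh7, and HSPD1 fell by 0.51 in Huh7. The protease gene HTRA2 rose by 0.97 in HepG2 and 0.54 in Huh7, and HSPA9, the matrix Hsp70, rose by 0.66 in HepG2. In WEHI-231 with MS8815, Hspd1 fell by 0.30, Hspa9 by 0.26 and Trap1 by 0.30 in the authors' deposited table. In Huh7 shEZH2 HSPA9 fell by 0.40 and AFG3L2, a protease of the inner membrane, by 0.28 in the authors' deposited table.

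Of 8 regulators of respiratory gene transcription, 1 rose with MS7126 in each liver line and none fell, in the authors' deposited tables. Of all genes 7.44% rose with MS7126 in HepG2 and 17.5% in Huh7. Of 7 regulators in WEHI-231 4 fell with MS8815 and none rose, where 11.8% of all genes fell. PPARGC1A, a coactivator of mitochondrial biogenesis, rose by 1.31 with the label shEZH2, 1.18 with #664 and 0.45 with #665 in HepG2, in the authors' deposited tables. GABPB1, a subunit of the ETS factor GABP, fell by 1.31, 0.57, 0.40 and 0.41 with shEZH2, #664, #665 and #667 in the authors' deposited tables, which share their controls, and rose by 0.82 in Huh7 with MS7126. Nrf1, Gabpa and Pprc1 fell by 0.38, 0.34 and 0.28 in WEHI-231 with MS8815 in the authors' deposited table.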
